A study of Drosophila melanogaster with 8 samples.

Results

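Neuropeptide receptors are the cell-surface proteins through which neurons, gut, fat body, muscle and renal tubules respond to peptide messengers. The 38 genes described here encode receptors of this kind in Drosophila melanogaster and were taken by gene name from the deposited count table, in which all 38 had a row among 13982 genes. They were measured by RNA-seq in whole heads of 2 day old flies, each library holding 20 heads, 10 from males and 10 from females. The 4 Control libraries came from flies of the genotype nSybGal4/w[1118], which carry the pan-neuronal driver without a hairpin, and the 4 ND-75KD libraries from nSybGal4/ND-75 RNAi flies, in which the same driver expresses the TRiP hairpin HMS00853 against ND-75, a core subunit of mitochondrial complex I. Both groups therefore carry nSyb-Gal4, which is active in neurons, and the heads also hold glia, photoreceptors, fat body, muscle and cuticle-forming cells. The study's text names the driver together with Tub-Gal80ts, which the sample labels do not list.

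These receptors are G protein-coupled receptors with 7 membrane-spanning helices. A peptide, cut from a larger precursor and released from dense core vesicles, binds the receptor on a target cell, which may lie far from the releasing neuron, and the receptor acts through a heterotrimeric G protein on cyclic AMP, calcium or protein kinase C. In the fly head these receptors are known for their parts in feeding, sleep, clock output, courtship, stress responses and metabolism, and most are expressed in small sets of neurons, so that their transcripts are rare in whole tissue. Some also act outside neurons, AkhR in fat body being the best known case.

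Total counts were 21758154 to 24680283 in the Control libraries and 17448199 to 24071517 in the ND-75KD libraries. ND-75 itself had 578, 562, 680 and 684 CPM (read counts scaled by each library's effective size) in Control replicates 1 to 4 and 316, 313, 282 and 312 CPM in ND-75KD replicates 1 to 4, a log2 fold change of -1.03 (SE 0.11, edgeR quasi-likelihood adjusted p = 1.48e-04). Of 9986 genes with enough reads to test, 14.3% were called higher and 18.9% lower in ND-75KD at an adjusted p under 0.05. Control 2 stood apart on the second principal component (18.3% of the variance) and had 23.9% of its reads on the mitochondrial rRNA mt:lrRNA, against 4.58% to 7.40% in the ND-75KD libraries. The study lists the RNAi stock with mutant alleles of y, v and sev on its X chromosome and with y+ and v+ as markers of the hairpin insert at attP2. The genes y (log2 fold change 4.23), v (-1.94) and sev (-0.69) all differed between the groups, and strain background, insert and knockdown cannot be told apart. In bulk heads, fewer cells of a type and less RNA per cell cannot be told apart either.

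All 38 receptor genes passed the filter on low counts and were tested. In ND-75KD heads the expression of 7 was significantly increased (18.4%, against 14.3% of all tested genes): SIFaR, Lgr3, CCAP-R, rk, PK1-R, AstC-R2 and CCHa1-R. The expression of 4 was significantly decreased (10.5%, against 18.9% of all tested genes): AstC-R1, AkhR, CrzR and SPR. The remaining 27 were not called, so 11 of 38 were called in all, against 33.2% of all tested genes. The CPM of the 2 groups did not overlap for 13 receptors (34.2%, against 36.2% of all tested genes), namely the 11 called genes together with ETHR and Lkr. ND-75KD lay above Control for 9 of them (17.2% of all tested genes) and below for 4 (19.0%). Taken over both directions, these shares lie close to those of all genes. By direction the called shares differed more, at 18.4% against 14.3% higher and 10.5% against 18.9% lower, from 7 and 4 genes. The median log2 fold change of the 38 receptors was 0.08 against -0.01 for all tested genes. No result is read from the list as a whole, and what follows concerns individual receptors.

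**Figure D1:**
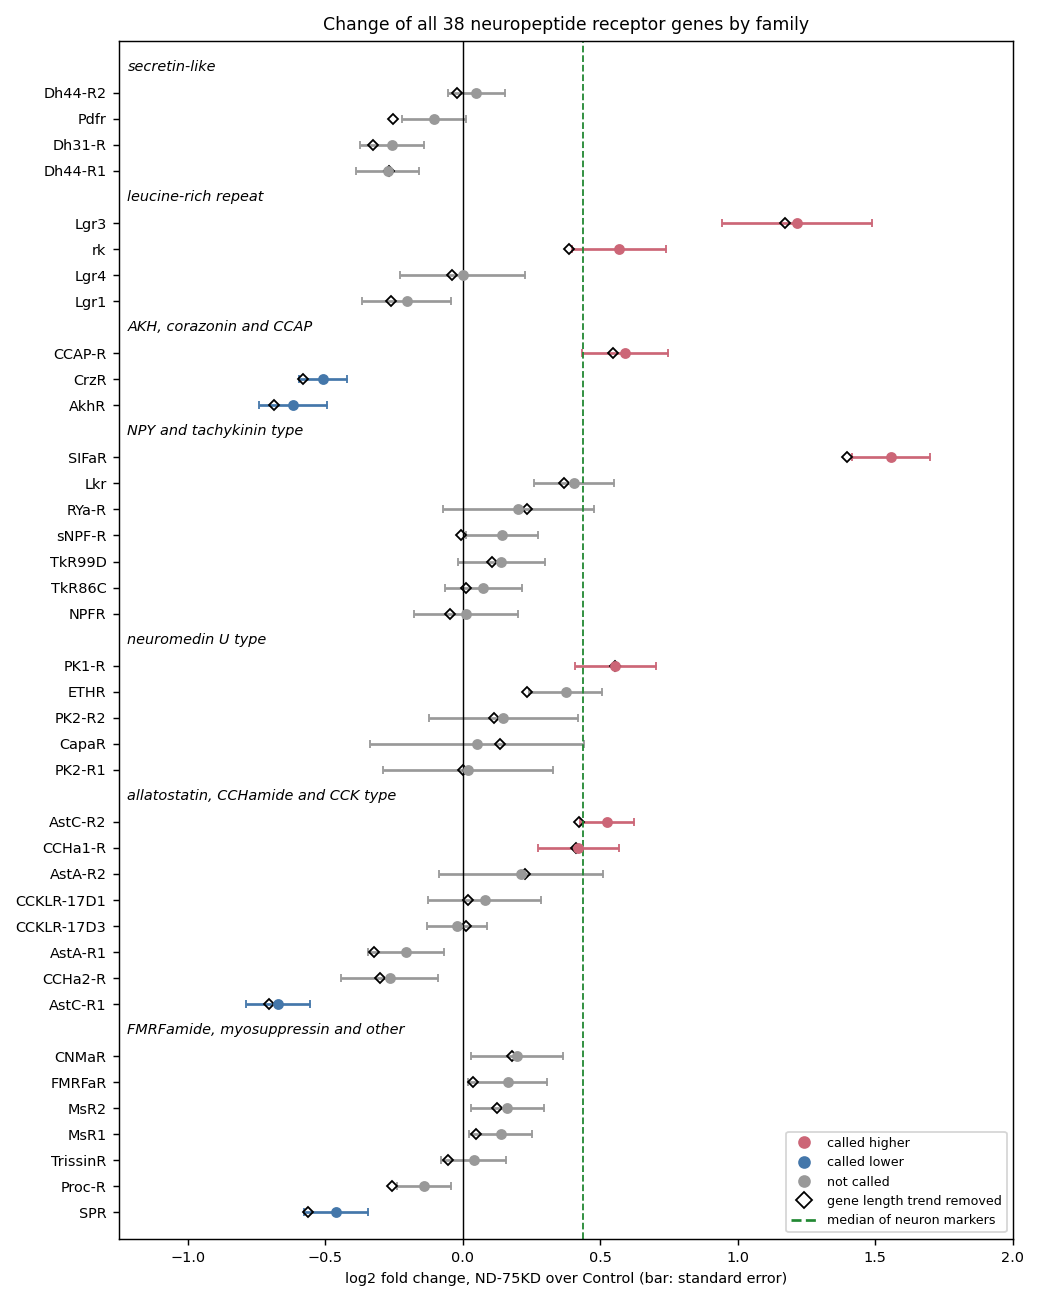
Log2 fold change (ND-75KD over Control) of each of the 38 receptor genes, grouped by family, with the standard error of the fit as a bar. Filled points are red for genes called higher (7), blue for genes called lower (4) and grey for genes not called (27). Open diamonds give the same value after a trend with gene length was removed. The dashed line marks 0.44, the median of 14 neuron marker genes, whose median length is 7144 bases against 3187 for the receptors. SIFaR (1.56) and Lgr3 (1.21) lie farthest to the right and AstC-R1 (-0.67) farthest to the left.

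SIFaR had the largest change among the receptors. It encodes the receptor for SIFamide, a peptide made by a few cells of the pars intercerebralis and known for its parts in courtship, feeding and sleep. SIFaR (FBgn0038880, 3R 21276664 to 21293998, minus strand, coordinates of the deposited table) had 6.35, 6.78, 6.32 and 9.10 CPM in the Control libraries and 21.0, 22.1, 22.7 and 18.5 CPM in the ND-75KD libraries. Every ND-75KD library was above every Control library by a wide margin, Control 4 being the highest of its group and ND-75KD 4 the lowest of its own. The means were 7.14 ± 1.33 and 21.1 ± 1.87 CPM (SD, n = 4 each), a 2.94-fold difference with a log2 fold change of 1.56 (SE 0.14, edgeR quasi-likelihood adjusted p = 5.62e-05). SIFaR was called in each of the 7 other processing settings and without each library in turn, at log2 fold changes of 1.40 to 1.70. The SIFa gene itself, which encodes the peptide, had overlapping groups, with 38.9, 56.4, 28.0 and 27.8 CPM in Control and 32.3, 36.5, 52.3 and 54.2 CPM in ND-75KD (log2 fold change 0.22, SE 0.24, edgeR adjusted p = 0.507).

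The genes around SIFaR did not move as a block. The following were examined after the value of SIFaR had been seen. CG17298 lies on the opposite strand inside the span of SIFaR, with no exon in common, and ranged from 2.39 to 29.8 CPM in Control and from 101 to 183 CPM in ND-75KD (log2 fold change 3.03, SE 0.54, edgeR adjusted p = 0.00224). Its nearest neighbours downstream, CG3301 (-0.66, SE 0.09) and CG3308 (-0.57, SE 0.09), were both lower, and 6 further genes within 25 kb were not called: Rab1, AP-2sigma, Idi, CG16791, lncRNA:Hsromega and the receptor gene ETHR, which lies 11.5 kb away. The strand setting of the counting is not given in the sources used here, which bears on any read that crosses from one gene's exons into the other's span.

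Among the leucine-rich repeat receptors, whose large outer domain binds glycoprotein hormones or relaxin-like peptides, Lgr3 and rk were increased. Lgr3, the receptor through which the relaxin-like peptide Ilp8 couples tissue growth to developmental timing in larvae, was one of the scarcest receptors, with 14 to 40 reads in a Control library. Lgr3 (FBgn0039354, 3R 25665809 to 25677214, plus strand) had 1.64, 0.989, 1.36 and 1.50 CPM in Control and 3.18, 4.90, 2.42 and 2.51 CPM in ND-75KD. The groups did not overlap, although ND-75KD 2 was well above the other 3 knockdown libraries. The log2 fold change was 1.21 (SE 0.27, edgeR adjusted p = 0.00726), and Lgr3 was called in all 7 other settings and without each library in turn, at 0.95 to 1.34. Its ligand gene Ilp8 was also called higher, at 0.368, 0.283, 0.749 and 0.283 CPM in Control and 0.943, 0.800, 1.71 and 0.886 CPM in ND-75KD (log2 fold change 1.35, SE 0.40, edgeR adjusted p = 0.0263), from only 4 to 16 reads per Control library.

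The gene rk (rickets, FBgn0003255, 2L) encodes the receptor for bursicon, the hormone of cuticle tanning and wing expansion in newly emerged flies. It had 4.46, 4.73, 6.64 and 4.65 CPM in Control and 7.05, 9.20, 6.68 and 7.50 CPM in ND-75KD. The groups only just failed to overlap, since Control 3 came within a small distance of ND-75KD 3. The log2 fold change was 0.57 (SE 0.17, edgeR adjusted p = 0.0275), but rk was called in 4 of 7 other settings and lost its call with limma voom, with the length trend removed, with the replicate block, and without Control 4, ND-75KD 2 or ND-75KD 4. The bursicon subunit genes Burs (0.409 ± 0.364 CPM in Control and 0.965 ± 0.317 in ND-75KD, edgeR adjusted p = 0.118) and Pburs (0.561 ± 0.439 and 0.876 ± 0.294, edgeR adjusted p = 0.319) were close to the lower limit of detection and were not called. On the opposite strand, NimC2 shares 9.79% of the exon bases of rk and was lower in ND-75KD (log2 fold change -0.78). Lgr1, a receptor for the Gpa2 and Gpb5 glycoprotein hormone (21.6 ± 5.31 CPM in Control and 18.8 ± 1.06 in ND-75KD), and Lgr4, which has been linked to Ilp7 (1.70 to 3.36 and 1.94 to 3.00 CPM), had overlapping groups.

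The 3 receptors related to the vertebrate gonadotropin-releasing hormone and vasopressin receptors were all called (against 33.2% of all tested genes), and not in one direction. With 3 genes, nothing is read from this count. AkhR is the receptor of adipokinetic hormone, the fly counterpart of glucagon, and is best known in the fat body, where it mobilises stored lipid and sugar. AkhR (FBgn0025595, 2L 6711286 to 6716186, minus strand) had 53.7, 57.6, 52.0 and 54.7 CPM in Control and 42.5, 39.0, 29.8 and 30.8 CPM in ND-75KD. All ND-75KD libraries were lower than all Control libraries, which lay close together, and ND-75KD 1 and 2 were higher than ND-75KD 3 and 4. The means were 54.5 ± 2.38 and 35.5 ± 6.21 CPM (log2 fold change -0.62, SE 0.12, edgeR adjusted p = 0.00411).

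CrzR, the receptor of corazonin, a stress-related peptide, was also decreased. CrzR (FBgn0036278, 3L 12339116 to 12351544, minus strand) had 34.5, 39.5, 39.0 and 36.5 CPM in Control and 27.3, 25.3, 27.3 and 25.3 CPM in ND-75KD (log2 fold change -0.51, SE 0.09, edgeR adjusted p = 0.00189). The groups were far apart relative to the spread within either of them. The peptide gene Crz was not called (15.6 ± 2.85 CPM in Control and 14.3 ± 1.49 in ND-75KD, edgeR adjusted p = 0.515). Akh, the gene of the adipokinetic hormone, had too few reads in heads to be tested. The fat body markers were also lower in ND-75KD: 6 of 7 were called lower (85.7%, against 18.9% of all tested genes), with a median log2 fold change of -1.45. Their summed level was 28412 to 42899 CPM in Control and 5127 to 10848 CPM in ND-75KD. AkhR and CrzR moved in the same direction as these markers, and the part of the fat body in their change was not tested.

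CCAP-R, the receptor for crustacean cardioactive peptide, which acts in ecdysis and on the heartbeat, went the other way. CCAP-R (FBgn0039396, 3R) had 3.81, 4.80, 3.65 and 3.48 CPM in Control and 6.65, 5.10, 5.93 and 5.83 CPM in ND-75KD. Control 2, the highest of its group, came close to ND-75KD 2, the lowest of the other. The log2 fold change was 0.59 (SE 0.16, edgeR adjusted p = 0.0161), and AkhR, CrzR and CCAP-R were each called in all 7 other settings and without each library in turn. The CCAP gene was not called, with overlapping values of 1.94 to 5.51 CPM in Control and 4.25 to 6.05 CPM in ND-75KD (log2 fold change 0.52, SE 0.28, edgeR adjusted p = 0.171).

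**Figure D2:**
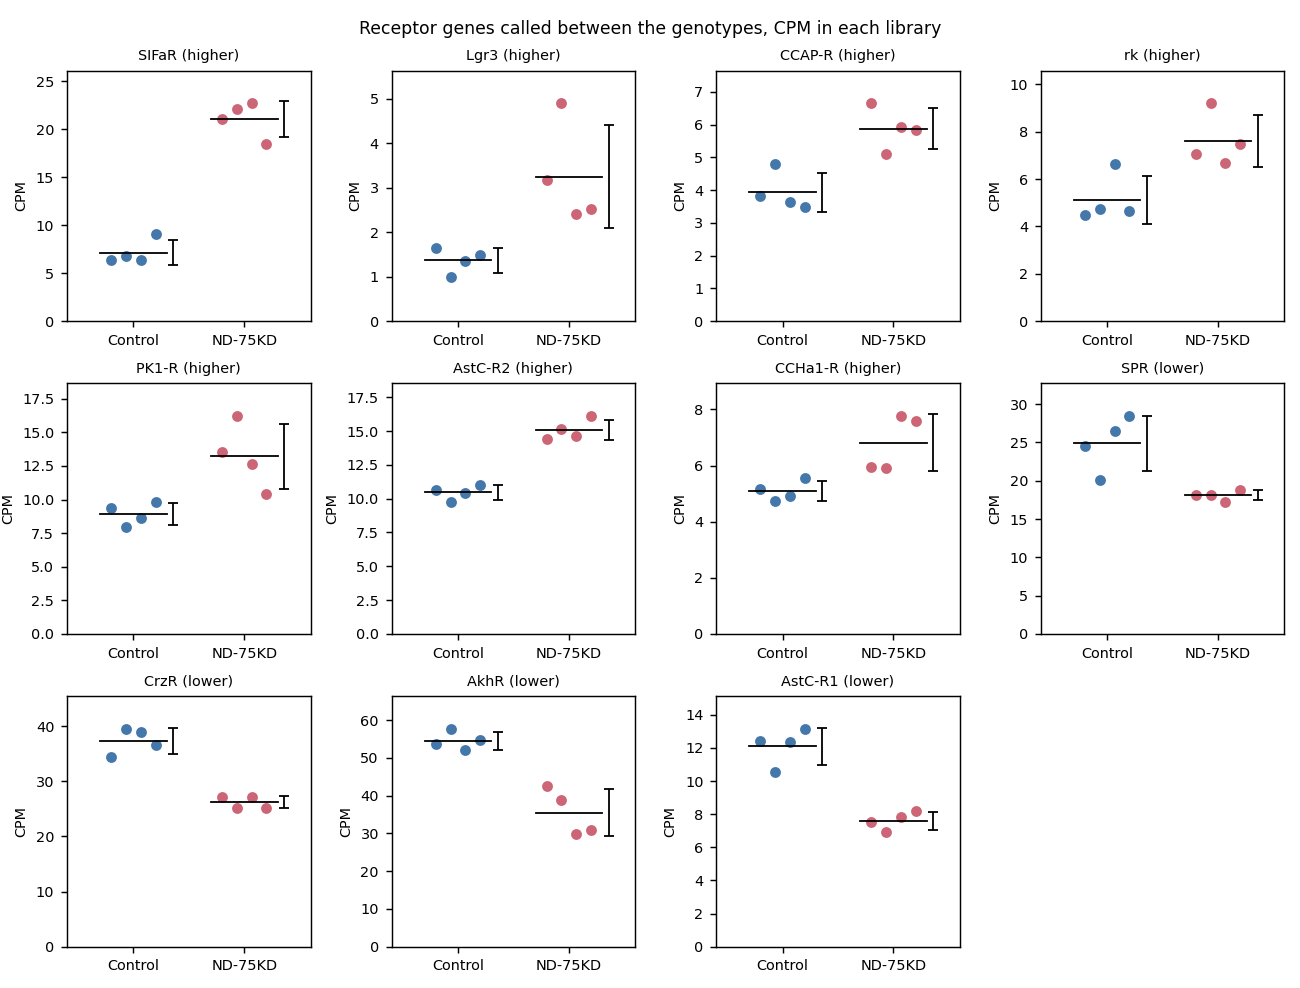
CPM in each library for the 11 receptor genes called between the genotypes, Control in blue and ND-75KD in red. Points are libraries in the order of their replicate numbers, horizontal lines are group means and vertical bars are 1 SD (n = 4), and each panel has its own axis starting at 0. The groups do not overlap in any panel; At their nearest points, SIFaR has 9.10 CPM in Control against 18.5 in ND-75KD, and rk has 6.64 against 6.68 CPM, the narrowest gap of the 11.

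The neuropeptide Y and tachykinin type receptors other than SIFaR were not called. Their nearest member to the threshold was Lkr, the receptor of leucokinin, which acts on the renal tubules and in brain circuits of feeding and sleep. Lkr had 3.97, 4.03, 3.88 and 3.88 CPM in Control and 4.57, 6.15, 4.72 and 5.43 CPM in ND-75KD. All ND-75KD libraries were above the tightly grouped Control libraries, but the log2 fold change of 0.40 (SE 0.15) had an edgeR adjusted p of 0.0555, and Lkr was called in 3 of 7 other settings. For NPFR and sNPF-R, receptors of 2 feeding peptides, the groups overlapped, at 6.33 ± 1.69 and 6.42 ± 0.435 CPM for NPFR (log2 fold change 0.01) and at 18.2 ± 3.20 and 20.1 ± 1.55 CPM for sNPF-R (0.14). The tachykinin receptor TkR99D (0.14), the natalisin receptor TkR86C (0.07) and RYa-R (0.20), with about 1 CPM, had overlapping groups as well.

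In the neuromedin U type group, which holds the receptors of pyrokinins and related amidated peptides, PK1-R was increased. PK1-R (FBgn0038201, 3R), which responds to the pyrokinin encoded by Capa, had 9.37, 7.98, 8.61 and 9.83 CPM in Control and 13.6, 16.2, 12.6 and 10.4 CPM in ND-75KD. ND-75KD 2 was the highest library and ND-75KD 4 lay only a little above Control 4. The log2 fold change of 0.55 (SE 0.15, edgeR adjusted p = 0.0157) fell to 0.44 without ND-75KD 2, where the call was lost (edgeR adjusted p = 0.0519). The peptide gene Capa moved in the opposite direction, from 31.2, 53.9, 46.7 and 46.2 CPM in Control to 17.9, 20.0, 17.2 and 22.6 CPM in ND-75KD (log2 fold change -1.19, SE 0.16, edgeR adjusted p = 5.22e-04).

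CapaR, the other receptor for Capa peptides and chiefly a receptor of renal tubules, was the scarcest of all 38, at 0.573 ± 0.191 CPM in Control and 0.608 ± 0.264 CPM in ND-75KD, from 5 to 22 reads per library. Its log2 fold change of 0.05 has an SE of 0.39, so that a difference as large as that of PK1-R was not detectable at this depth. ETHR, the receptor of ecdysis triggering hormone, had 11.0, 7.35, 9.50 and 10.2 CPM in Control and 11.4, 12.4, 12.6 and 13.0 CPM in ND-75KD. Its groups did not overlap, with Control 2 the lowest library, and its log2 fold change of 0.37 (SE 0.13) had an edgeR adjusted p of 0.0533; ETHR was called in 4 of 7 other settings. PK2-R1 (3.05 ± 1.32 and 3.12 ± 0.856 CPM) and PK2-R2 (1.73 ± 0.551 and 1.93 ± 0.434 CPM), the hugin receptors, overlapped between groups, although their peptide gene Hug was lower in ND-75KD (51.7 ± 14.3 and 34.9 ± 3.76 CPM, log2 fold change -0.56, edgeR adjusted p = 0.0410). The groups of Hug overlapped too, at 32.3 to 66.6 CPM in Control, where Control 2 was highest, and 31.4 to 39.6 CPM in ND-75KD.

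The receptors AstC-R1 and AstC-R2 bind the same peptide, allatostatin C, and are the fly relatives of the vertebrate somatostatin receptors. They changed in opposite directions. AstC-R1 (FBgn0036790, 3L 18560258 to 18576326, plus strand) had 12.4, 10.5, 12.4 and 13.1 CPM in Control and 7.55, 6.90, 7.80 and 8.20 CPM in ND-75KD (log2 fold change -0.67, SE 0.12, edgeR adjusted p = 0.00195). AstC-R2 (FBgn0036789, 3L 18485137 to 18502557, minus strand) had 10.6, 9.75, 10.4 and 11.0 CPM in Control and 14.4, 15.2, 14.6 and 16.1 CPM in ND-75KD (log2 fold change 0.52, SE 0.10, edgeR adjusted p = 0.00304). Neither gene had any overlap between groups, and both were called in all 7 other settings and without each library in turn. The genes stand 57.7 kb apart on 3L with CG32198 between them. AstC, which encodes the peptide, was not called (45.1 ± 6.17 CPM in Control and 40.1 ± 2.83 in ND-75KD, edgeR adjusted p = 0.257), while the paralogous peptide gene AstCC was higher, at 1.31 ± 0.470 and 2.92 ± 0.706 CPM (log2 fold change 1.19, SE 0.28, edgeR adjusted p = 0.00873).

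The ratio of the AstC receptors within a library does not depend on the scaling of that library. As a log2 ratio of CPM, AstC-R2 over AstC-R1 was -0.23, -0.11, -0.24 and -0.25 in Control and 0.93, 1.13, 0.91 and 0.97 in ND-75KD. The receptor AstC-R1 was thus the more abundant by reads in every Control library and AstC-R2 in every ND-75KD library. The mean difference was 1.20, with p = 0.0286 in a two-sided exact permutation test, the smallest value that 70 regroupings allow. Such a ratio was computed for 8 pairs of receptors that share a peptide gene, and adjusted over them the value is 0.114. In CPM, every ND-75KD library was already below every Control library for AstC-R1 and above every Control library for AstC-R2. The ratio was therefore bound to separate the groups and to give the smallest p, so this test adds no evidence beyond the values of each gene.

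One other pair did not overlap between groups. Dh44-R2 over Dh44-R1, the 2 receptors for the corticotropin-releasing factor-like hormone Dh44, had a log2 ratio of 0.58 ± 0.11 in Control and 0.90 ± 0.11 in ND-75KD (difference 0.33, exact permutation p = 0.0286, adjusted 0.114). Neither Dh44 receptor was called on its own. The ratios of the other 6 pairs overlapped, with exact permutation p of 0.257 and above.

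**Figure D3:**
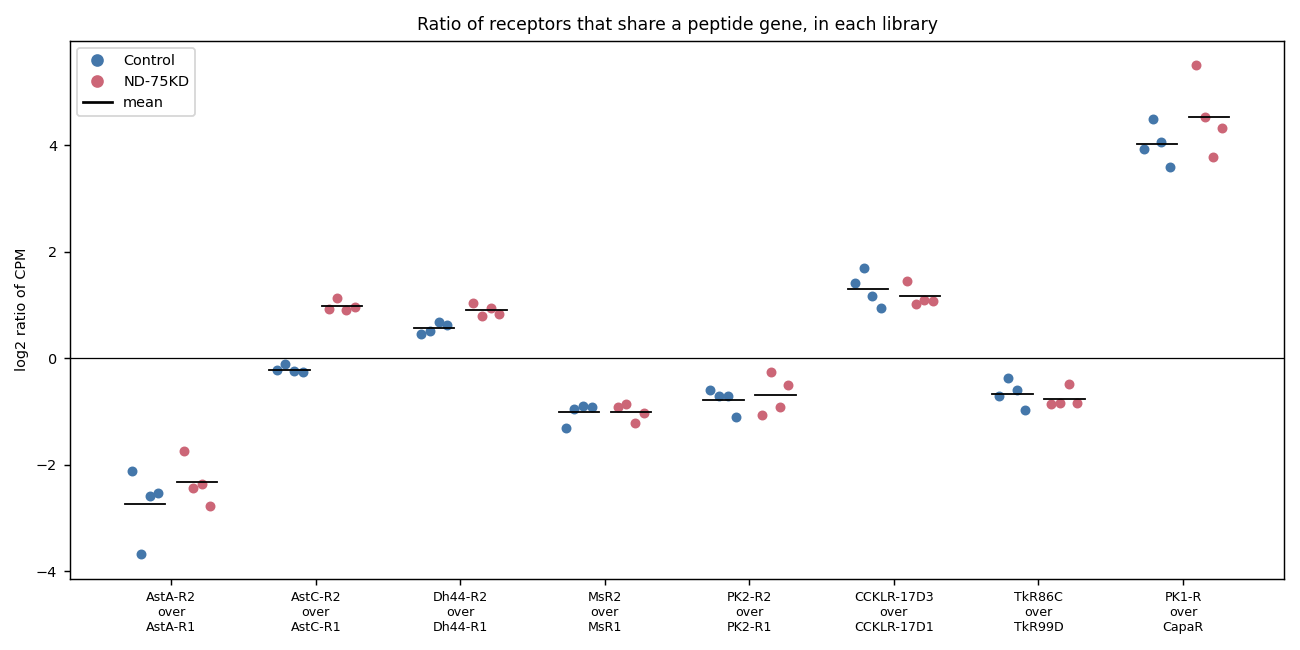
Log2 ratio of CPM between 2 receptors of the same peptide gene, in each library, for 8 pairs; blue points are Control, red points ND-75KD, and lines are group means. The ratio of AstC-R2 to AstC-R1 goes from -0.25 to -0.11 in Control to between 0.91 and 1.13 in ND-75KD; only this pair and Dh44-R2 over Dh44-R1 have groups that do not overlap.

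CCHa1-R, the receptor of CCHamide-1, a gut and brain peptide, was the weakest of the increased receptors. CCHa1-R (FBgn0050106, 2R) had 5.16, 4.73, 4.91 and 5.54 CPM in Control and 5.96, 5.90, 7.76 and 7.61 CPM in ND-75KD. The Control libraries were all lower, but ND-75KD 1 and 2 lay close to Control 4. The log2 fold change was 0.42 (SE 0.15, edgeR adjusted p = 0.0478), and the call held in 4 of 7 other settings and in 1 of the 8 fits that left out a library, that without Control 4. CCHa2-R (4.24 to 6.47 and 3.57 to 4.84 CPM) was not called (log2 fold change -0.27, SE 0.18), although its peptide gene CCHa2, a nutrient signal from fat body and gut, fell from 162 ± 67.3 to 58.9 ± 6.94 CPM (log2 fold change -1.45, SE 0.24, edgeR adjusted p = 0.00136).

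The allatostatin A and drosulfakinin receptors overlapped between groups. AstA-R1 had 12.8 ± 2.33 and 11.1 ± 0.826 CPM and AstA-R2 had 1.97 ± 0.525 and 2.33 ± 0.912 CPM in Control and ND-75KD, respectively. Of the drosulfakinin receptors, which are the fly cholecystokinin-type receptors, CCKLR-17D1 had 5.89 ± 1.80 and 6.25 ± 0.670 CPM and CCKLR-17D3 had 14.2 ± 1.58 and 14.0 ± 0.469 CPM. Their satiety peptide gene Dsk had one of the largest changes among the ligand genes, at 28.2, 60.9, 39.9 and 37.7 CPM in Control and 14.0, 15.3, 14.4 and 14.5 CPM in ND-75KD (log2 fold change -1.51, SE 0.20, edgeR adjusted p = 4.39e-04).

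SPR is the receptor of sex peptide, which alters female behaviour after mating, and of the myoinhibitory peptides encoded by Mip, which act in sleep. SPR (FBgn0029768, X 5446656 to 5494012, plus strand) had 24.5, 20.1, 26.5 and 28.4 CPM in Control and 18.2, 18.1, 17.2 and 18.8 CPM in ND-75KD. The knockdown libraries were close to one another and all below Control, with Control 2 the nearest. The log2 fold change was -0.46 (SE 0.12, edgeR adjusted p = 0.0125). Without Control 3 it was -0.40 and the call was lost (edgeR adjusted p = 0.0560). Of the exon bases of SPR, 26.8% are shared with frma on the opposite strand, and frma was itself lower (log2 fold change -0.47), so reads in the shared stretch cannot be told apart unless strand was used in counting. Mip was decreased too, from 30.5, 31.5, 34.4 and 41.6 CPM to 21.0, 19.5, 21.5 and 21.2 CPM (log2 fold change -0.73, SE 0.11, edgeR adjusted p = 9.90e-04).

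The other receptors of the FMRFamide, myosuppressin and proctolin group were not called. FMRFaR had 7.44 ± 1.09 and 8.36 ± 0.895 CPM, MsR1 11.5 ± 1.44 and 12.7 ± 0.370 CPM, and MsR2 5.67 ± 0.437 and 6.36 ± 0.599 CPM in Control and ND-75KD, respectively. Proc-R, the receptor of proctolin, a peptide that strengthens muscle contraction, had 28.5, 34.5, 30.7 and 32.3 CPM in Control and 31.1, 25.6, 28.8 and 28.6 CPM in ND-75KD. Its groups overlapped (log2 fold change -0.14, SE 0.10, edgeR adjusted p = 0.292). The Proc gene, which encodes proctolin, was the ligand gene with the smallest adjusted p, at 62.3, 66.9, 59.0 and 67.6 CPM in Control and 157, 169, 172 and 171 CPM in ND-75KD (log2 fold change 1.39, SE 0.09, edgeR adjusted p = 7.43e-06). CNMaR (11.8 ± 2.71 and 13.6 ± 1.65 CPM) and TrissinR (16.3 ± 1.85 and 16.8 ± 1.64 CPM) also overlapped, whereas the Trissin gene was lower (17.7 ± 3.66 and 12.4 ± 1.32 CPM, log2 fold change -0.50, edgeR adjusted p = 0.0275).

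The secretin-like receptors, relatives of the vertebrate calcitonin and corticotropin-releasing factor receptors, included 0 called genes of 4 with edgeR and with DESeq2, and 1 lower with limma voom. Of all tested genes, 33.2% were called with edgeR, and 23.5% were lower with limma voom. With 4 genes, nothing is read from these counts. At an unadjusted p under 0.05, 2 of them were lower, Dh44-R1 and Dh31-R. Dh44-R1 had 16.0, 15.6, 14.4 and 17.3 CPM in Control and 12.4, 15.4, 12.2 and 12.5 CPM in ND-75KD, where ND-75KD 2 alone reached into the Control range (log2 fold change -0.27, SE 0.11, edgeR adjusted p = 0.0895). Dh31-R, a clock and gut hormone receptor, had 25.7, 24.0, 26.2 and 33.0 CPM and 21.3, 22.2, 25.2 and 22.4 CPM (log2 fold change -0.26, SE 0.12, edgeR adjusted p = 0.111), and it was called lower without Control 2. Dh44-R2 (23.6 ± 2.21 and 24.5 ± 2.03 CPM) had a log2 fold change of 0.05. Pdfr, through which the clock peptide PDF synchronises clock neurons, had 42.0 to 58.5 CPM in Control and 43.5 to 48.5 CPM in ND-75KD (log2 fold change -0.10, SE 0.12, edgeR adjusted p = 0.513).

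Across the 27 receptors that were not called, log2 fold changes ran from -0.27 to 0.40 with standard errors of 0.10 to 0.39, and 22 of them lay within 0.25 of 0. Summed over families, the AKH, corazonin and CCAP group had at least 92.0 CPM in every Control library and at most 76.4 CPM in every ND-75KD library. This sum is mostly AkhR (mean 54.5 CPM in Control) and CrzR (37.4 CPM), each lower without overlap on its own. CCAP-R (3.93 CPM) was higher, so the gap adds nothing beyond AkhR and CrzR and is not one of the whole family. The neuropeptide Y and tachykinin type group did not overlap either, with at most 62.8 CPM in Control and at least 69.0 CPM in ND-75KD. Without SIFaR the other 6 members of the neuropeptide Y and tachykinin type group overlapped, at 37.5 to 53.7 CPM in Control and 47.5 to 54.2 CPM in ND-75KD. The neuromedin U type group did not overlap, at 18.7 to 27.6 CPM in Control and 29.9 to 33.4 CPM in ND-75KD. PK1-R was its only called member and no sum without PK1-R was taken, so this gap is not read as one of the whole family. The summed secretin-like receptors (104 to 136 and 101 to 113 CPM) overlapped, as did the allatostatin, CCHamide and CCK type receptors (63.4 to 75.0 and 66.2 to 68.2 CPM), the leucine-rich repeat receptors (29.6 to 36.9 CPM in ND-75KD, within or just above the Control range) and the FMRFamide, myosuppressin and other receptors (99.1 to 120 and 103 to 108 CPM). Reads on all 38 genes numbered 6460 to 13602 in a Control library, the lowest being Control 2, and 9684 to 12701 in an ND-75KD library. Without Control 2, CCHa1-R was no longer called, Dh31-R and Lgr1 were called lower, and the other 10 calls held.

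Levels between genes were compared per kilobase of gene length. In Control heads AkhR had the highest level, 17.1 ± 0.747 CPM per kb, followed by CrzR at 11.5 ± 0.721, Pdfr at 10.6 ± 1.67, Proc-R at 8.34 ± 0.677 and Dh31-R at 8.29 ± 1.20 CPM per kb. The lowest were RYa-R at 0.504 ± 0.0930, Lgr3 at 0.456 ± 0.0927 and CapaR at 0.313 ± 0.104 CPM per kb. The median of the 38 was 2.45 CPM per kb, with 10 genes above 5 and 7 under 1. Of the 37 steps between neighbours in this order, the Control libraries did not overlap at 3, between AkhR and CrzR, between CCKLR-17D3 and TrissinR, and between AstC-R2 and ETHR, and at the other 34 they did. AkhR and CrzR, the top 2 receptors, were both decreased, and in ND-75KD heads AkhR was at 11.2 ± 1.95 and CrzR at 8.11 ± 0.356 CPM per kb. SIFaR was at rank 28 of 38 in Control with 1.42 ± 0.264 CPM per kb, and had 4.19 ± 0.371 CPM per kb in ND-75KD, close to the Control level of AstC-R1 at 4.16 ± 0.384.

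**Figure D4:**
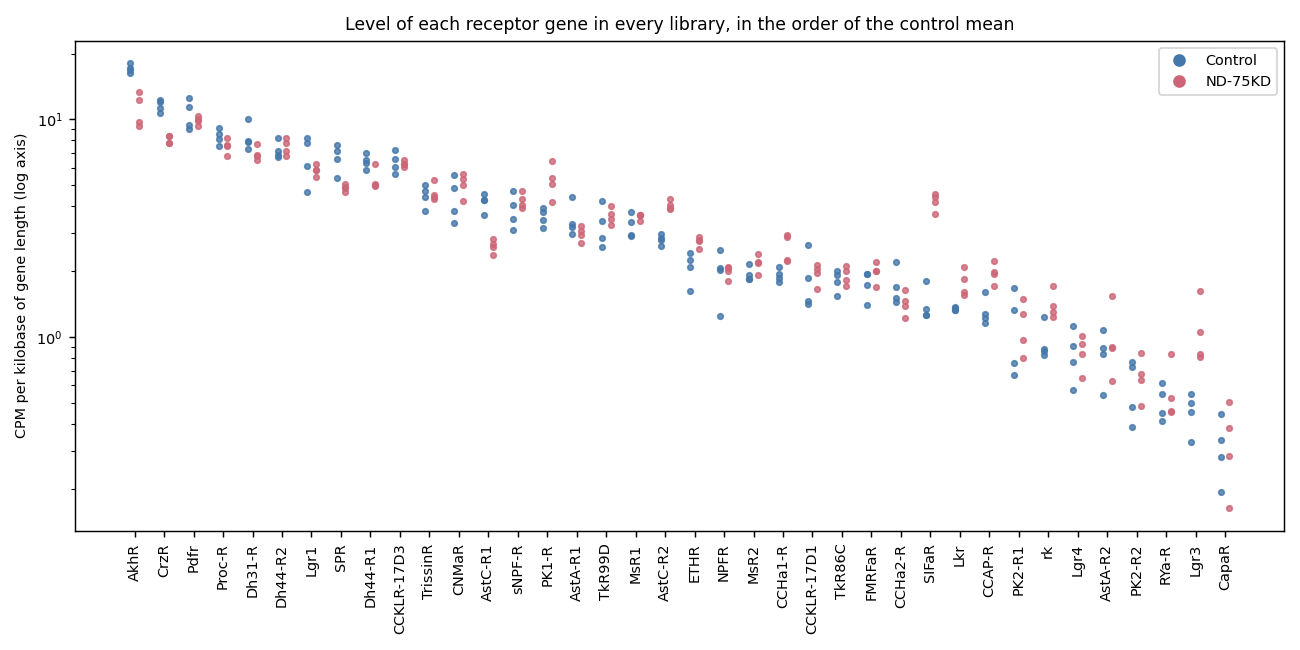
Level of each of the 38 receptor genes in every library, as CPM per kilobase of gene length on a log axis, ordered from left to right by the Control mean; blue points are Control and red points ND-75KD. Control means run from 17.1 for AkhR down to 0.313 CPM per kb for CapaR, and SIFaR is the gene whose red points stand farthest above its blue ones.

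To set the receptors beside their peptides, each receptor was paired with the genes of its known ligands, giving 42 pairs. In 36 of them the ligand gene could be tested. ETH, Lk and SP were not analysed here, and Akh, Ilp7 and RYa had too few reads. AstCC was on the list of ligand genes but in none of the pairs. Of 29 tested ligand genes 3 were higher (10.3%, against 14.3% of all tested genes), namely Proc, AstCC and Ilp8, and 7 were lower (24.1%, against 18.9%), namely Dsk, CCHa2, Capa, Mip, Hug, NPF and Trissin, with a median log2 fold change of -0.09. NPF, a feeding and reward peptide gene, had 23.8 ± 5.54 and 16.5 ± 2.28 CPM (log2 fold change -0.53, SE 0.16, edgeR adjusted p = 0.0314). Its groups overlapped, at 19.2 to 31.8 CPM in Control, where Control 2 was highest, and 15.1 to 19.9 CPM in ND-75KD. When the trend of fold change with gene length was removed, the split was 7 higher and 4 lower in place of 3 and 7. In that fit 15.6% of all tested genes were higher and 19.8% lower. The peptide genes had a median length of 1173 bases.

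Of 12 pairs with a called ligand gene, 9 had a receptor that was not called (75.0%, against 71.1% of all 38 receptors and 66.8% of all tested genes), so the share is near the background. In the other 3 both genes were called: Ilp8 and Lgr3 were both higher, Mip and SPR both lower, and Capa was lower while PK1-R was higher. Among the called ligand genes with the largest changes, Proc (1.39), Dsk (-1.51) and CCHa2 (-1.45) had no called receptor, while Ilp8 (1.35) and Capa (-1.19) had Lgr3 and PK1-R. In the other direction, the receptors SIFaR, CrzR, CCAP-R, rk, AstC-R1, AstC-R2 and CCHa1-R were called where their ligand genes SIFa, Crz, CCAP, Burs, Pburs, AstC and CCHa1 were not, CCHa1 having 4.97 ± 0.653 and 5.59 ± 0.123 CPM (edgeR adjusted p = 0.344). Both genes were called in 3 of the 11 tested pairs with a called receptor. Among tested ligand genes 65.5% were not called, so nothing is read from this direction. Log2 fold changes were 1.32 (SE 0.61) for Burs, 0.73 (SE 0.54) for Pburs and 0.52 (SE 0.28) for CCAP, which are unresolved rather than unchanged. They were 0.22 for SIFa, 0.18 for CCHa1, -0.13 for Crz and -0.17 for AstC. The AstC paralog AstCC, which was called higher, was not paired and is left out of these counts.

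**Figure D5:**
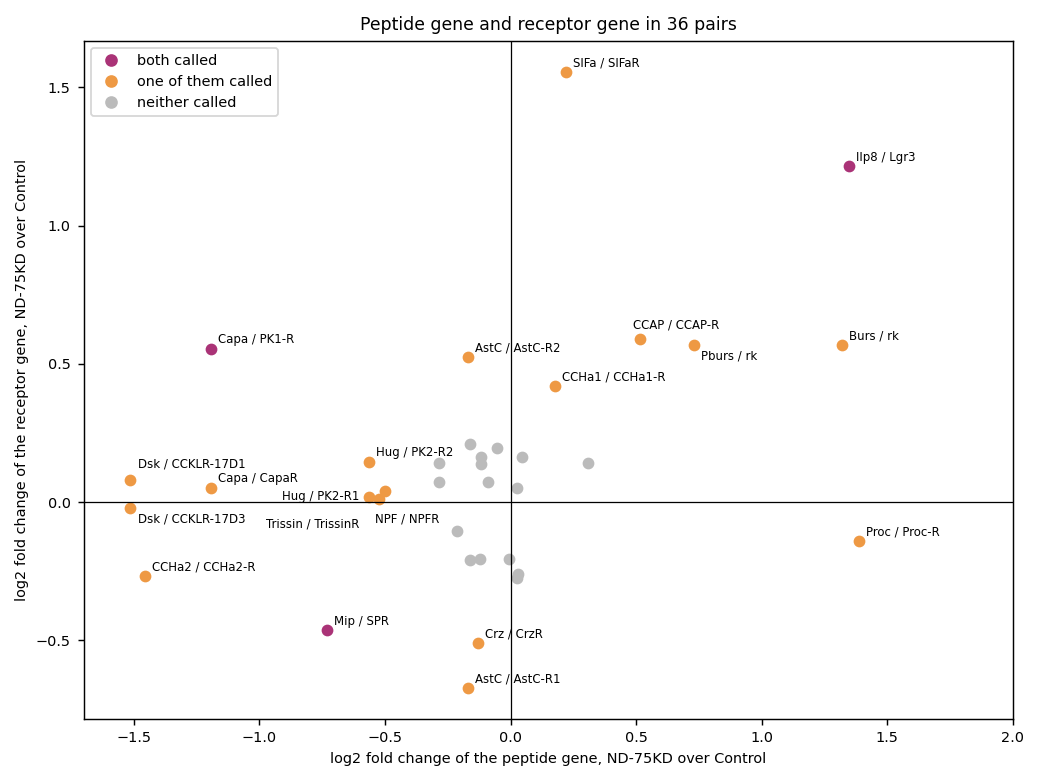
Log2 fold change (ND-75KD over Control) of the peptide gene on the horizontal axis and of its receptor gene on the vertical axis, for the 36 pairs in which both were tested; a gene with several partners appears once for each. Purple points mark the 3 pairs with both genes called, orange points pairs with one gene called and grey points pairs with neither. SIFaR (1.56) changed with SIFa near 0 (0.22), and Proc (1.39) changed with Proc-R near 0 (-0.14).

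Genes that act before and after the receptors were described in the same way. Of 13 genes for the processing and release of peptides, 5 were higher (38.5%, against 14.3% of all tested genes): dimm, the transcription factor of peptidergic cells (0.858 ± 0.161 and 1.53 ± 0.320 CPM, log2 fold change 0.80), the synaptotagmins Sytalpha (0.56) and Sytbeta (0.50), and the dense core vesicle genes IA-2 (0.39) and Cadps (0.39). Lower calls among these 13 numbered 0 with edgeR, 1 with DESeq2 and 2 with limma voom, and 1 gene was lower at an unadjusted p under 0.05. Of all tested genes, 18.9% were called lower with edgeR, 20.4% with DESeq2 and 23.5% with limma voom. The summed level of these genes was 3366 to 4286 CPM in Control and 4101 to 4386 CPM in ND-75KD, which overlap.

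Downstream of the receptors, 11 of 41 G protein signalling genes were higher (26.8%, against 14.3% of all tested genes) and 3 were lower (7.32%, against 18.9%), with a median log2 fold change of 0.13. Higher were the G protein subunit genes Galphaq (212 ± 24.0 and 308 ± 64.7 CPM, log2 fold change 0.54) and Ggamma1 (0.38), the regulators of G protein signalling Dhit (45.1 ± 6.49 and 72.6 ± 2.04 CPM, 0.68) and RSG7 (0.44), and the adenylate cyclase Ac3 (0.32). The cyclic nucleotide phosphodiesterase genes dnc (118 ± 7.24 and 155 ± 1.99 CPM, 0.39), Pde9 (0.30) and Pde11 (0.46) and the kinase genes Pka-C3 (0.45), Pka-R2 (0.46) and Pkc98E (0.31) were higher as well. Lower were Galphai, the inhibitory subunit (53.4 ± 5.07 and 38.3 ± 3.23 CPM, log2 fold change -0.48), and the photoreceptor arrestins Arr1 (-0.61) and Arr2 (-0.45), which terminate rhodopsin signalling. With the length trend removed, 6 signalling genes were higher and 8 were lower, where 15.6% of all tested genes were higher and 19.8% lower.

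Markers of cell types moved with genotype in the same libraries. Of 14 neuron markers 10 were higher (71.4%, against 14.3% of all tested genes), with a median log2 fold change of 0.44. Their summed level was 3495 to 4671 CPM in Control and 5067 to 5391 CPM in ND-75KD. Of the 38 receptors, 6 lay above the neuron marker median: SIFaR, Lgr3, CCAP-R, rk, PK1-R and AstC-R2. Of 8 photoreceptor markers 4 were lower, against 18.9% of all tested genes (summed 26543 to 40385 and 20137 to 23932 CPM). Of 8 glial markers 3 were lower, against the same 18.9% (summed 2816 to 3517 and 2443 to 2795 CPM). Of 7 tested muscle markers 1 was lower (14.3%, against 18.9%, summed 9849 to 16476 and 11496 to 12914 CPM). TpnC4, the other muscle marker listed, was the only marker at 0 in any library. Neuron, photoreceptor and glial markers of the labelled head tissue were all detected. The part of cell makeup in the receptor changes was not tested beyond these values.

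Fold change also moved with gene length across the transcriptome. Over 10 bins of tested genes ordered by length, the median log2 fold change was -0.37 in the shortest bin and 0.23 in the longest, and the receptor genes, at 1827 to 5386 bases with a median of 3187, are longer than the median of 2096 bases over all tested genes. The neuron markers had a median length of 7144 bases, within the longest bin. The photoreceptor markers had a median length of 1580 bases, in a bin with a median log2 fold change of -0.15. The part of this trend in the marker medians was not tested. After this trend was removed, SIFaR (1.40), Lgr3, CCAP-R, PK1-R, AstC-R2 and CCHa1-R remained called higher, rk was not called, and Dh31-R and Pdfr (-0.25) joined AkhR, AstC-R1, CrzR and SPR among the lower. By chromosome arm, 13 receptors lie on 3R, of which 4 were higher, where 14.8% of all tested genes were higher and 18.8% lower. Of 10 receptors on 3L 1 was higher and 2 were lower (15.8% and 17.8% of all tested genes there), and of 7 on X 1 was lower (19.7%). The other arms hold 5 receptors on 2R (1 higher, against 14.5%) and 3 on 2L (1 higher and 1 lower, against 13.6% and 19.7%). With so few receptors on an arm, nothing is read from these counts. Exons of another gene overlap those of 6 receptors (SPR, rk, Lgr3, Lgr4, Dh44-R2 and RYa-R), and for Lgr3 the overlap is 4.76% of its exon bases, with CG4730, which was not called (log2 fold change 0.09). The remaining 32 receptors, among them SIFaR, AstC-R1, AstC-R2, AkhR and CrzR, share no exon bases with another annotated gene.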

How the data were processed

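RNA from heads was made into NEBNext Ultra paired-end libraries. The authors trimmed reads with fastp, aligned them with HISAT2 to the fly genome of Ensembl release 102 and counted reads per gene with featureCounts; versions and the strand setting are not given in the sources used here. The deposited table holds counts, which were analysed here, beside a normalised signal (the authors' counts divided by 1 size factor per library), FPKM values, and the authors' own DESeq2 results (log2 fold changes and p-values), which were not used. The deposited signal and FPKM were used only to check how the table was made. Gene lengths are the authors' values.

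Counts of all genes were fitted with edgeR 4.0.16 in R 4.3.3 (TMM scaling, filterByExpr with a minimum count of 10 and a minimum total of 15, quasi-likelihood test, genotype as the only term). P-values were adjusted by Benjamini-Hochberg over 9986 genes, and genes were called at 0.05. This differs from the study's DESeq2, which was run as an alternative. A standard error is the log2 fold change divided by the root of its F value. CPM used the effective library sizes and do not sum to the same total in each library. The biological coefficient of variation was 0.171. P-values for ratios of receptors came from exact permutation of the 8 libraries. The scripts were tested on simulated data.

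Alternatives were DESeq2 size factors, DESeq2 1.42.0, no filter, at least 10 reads in every library, limma 3.58.1 voom with quality weights, removal of a loess trend (span 0.5) with gene length, a replicate block, and each library left out. Samples were grouped by their labelled genotype. In all 12 pairs of libraries of the same group the counts differed by more than counting noise (chi-square per degree of freedom of 10.6 or more), so none was merged. Start and end of all 38 genes matched a later Ensembl annotation, from which exon overlaps were taken. Named were all receptors, called members of the lists, and ligands of called receptors. The members and all lists were chosen with earlier results of these data known.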

Additional observations from a re-analysis of the deposited data

Results flagged for a closer look

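In 8 of 150 groups of 4 libraries (5.33%, over 75 genes), 1 library stood outside the other 3 by Dixon's criterion, and chance alone marks about 1 group in 20. Among the receptors, Control 4 was high for SIFaR (9.10 CPM, the next library at 6.78) and Control 3 was high for rk (6.64 CPM, next 4.73), each towards the ND-75KD group. Dh44-R1 was high in ND-75KD 2 (15.4 CPM, next 12.5), the library that closed its gap to Control, and MsR1 was low in ND-75KD 1 (12.1 CPM, next 12.8). Among the other genes, ND-75 was lowest in ND-75KD 3 (282 CPM, next 312), Ilp8 was highest in ND-75KD 3 (1.71 CPM, next 0.943), NPF was highest in ND-75KD 2 (19.9 CPM, next 15.8), and Pka-R2 was lowest in Control 3 (139 CPM, next 154).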

How the results depend on the processing

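Depth limits Lgr3, CapaR, RYa-R, Ilp8, Burs and Pburs most. Over the 7 other settings and 8 fits without a library, SIFaR, Lgr3, CCAP-R, AstC-R2, AstC-R1, AkhR and CrzR stayed called in the same direction. The number of receptors called higher was 8 with DESeq2 size factors, 9 with DESeq2, 6 without a filter, 9 with at least 10 reads in every library (37 tested), 7 in voom, 6 after length correction and 5 with the replicate block, and the number called lower was 4, 4, 4, 4, 5, 6 and 4. The calls over all genes moved too. In the same order, 15%, 17.2%, 9.7%, 16.5%, 20%, 15.6% and 11.6% of all tested genes were called higher. Lower were 18.3%, 20.4%, 13.5%, 17.9%, 23.5%, 19.8% and 15.6%. Leaving out 1 library gave 4 (without ND-75KD 2) to 7 (without Control 1) higher, and 3 (without Control 3) to 6 (without Control 2) lower. Of all tested genes, 9.45% were higher without ND-75KD 2 and 17.1% without Control 1. Lower were 13.1% without Control 3 and 19% without Control 2.

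Same-numbered libraries did not deviate together (correlations -0.11, -0.04, -0.01 and 0.03). These values gave no sign of pairing by number, but they cannot show that same-numbered libraries were prepared apart. The replicate block lost rk and CCHa1-R, and left 11.6% of all genes higher and 15.6% lower. With the block, 2 processing genes and 6 signalling genes were higher, and Lgr4 was at 0.020.

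Receptors near 0 changed sign in some settings, with no call on either side. Lgr4 was at 0.011 with DESeq2 size factors, 0.0098 in DESeq2, 0.033 with at least 10 reads in every library and 0.024 in voom. CCKLR-17D3 was at 0.015 with at least 10 reads in every library, 0.026 in voom and 0.013 after length correction. In voom NPFR was at -0.063, PK2-R1 at -0.15 and PK2-R2 at -0.0081. After length correction NPFR was at -0.047, PK2-R1 at -8.65e-04, Dh44-R2 at -0.022, sNPF-R at -0.0063, TrissinR at -0.056 and the peptide gene Crz at 0.031. Leaving out 1 library gave Lgr4 -0.13 to 0.21, PK2-R1 -0.13 to 0.29, NPFR -0.14 to 0.15, CapaR -0.22 to 0.26, CCKLR-17D1 -0.015 to 0.30, CCKLR-17D3 -0.043 to 0.045, TrissinR -0.033 to 0.10, AstA-R2 -0.076 to 0.39, RYa-R -0.056 to 0.30 and PK2-R2 -0.0014 to 0.32.

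Counts of the other lists moved more. Processing genes called lower were 1 in DESeq2, 2 in voom and 1 after length correction, which also gave 3 processing genes higher, 7 ligand genes higher and 4 lower, and 6 signalling genes higher and 8 lower. Of all tested genes, 15.6% were higher and 19.8% lower after length correction, and 20.4% were lower in DESeq2 and 23.5% in voom. In voom 18 signalling genes were higher, against 20% of all tested genes. Leaving out 1 library gave 931 (without ND-75KD 3) to 1723 of all genes higher, 4 to 8 ligand genes lower, 2 to 6 processing genes higher and 0 to 2 lower, and 4 to 14 signalling genes higher and 2 to 6 lower. The cause was not tested for any of these moves.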
